A study of Mus musculus with 15 samples.

Results

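Siglecs are sialic acid-binding receptors of the immunoglobulin superfamily, and their genes were followed here across the mononuclear phagocytes of the small intestinal lamina propria (LP). The group was defined by name as Cd33, Siglece, Siglecf, Siglecg, Siglech, Siglec1 and Cd22, which are 7 of the 19938 mouse genes with a value. All 7 had exactly 1 probeset that the array annotation assigned to a single symbol, so no choice between probesets was needed. RNA was measured on 15 GeneChip Mouse Gene 1.0 ST arrays, 3 for each of 5 populations sorted from healthy steady-state wild-type mice. The populations were CD64+ macrophages and the 4 subsets of CD64- dendritic cells (DCs) that CD103 and CD11b define, namely CD103+CD11b+ and CD103+CD11b- cells on one side and their CD103-CD11b+ and CD103-CD11b- counterparts on the other. None had been treated, and all came from the same tissue after removal of Peyer's patches and epithelium and digestion with collagenase VIII. The replicates were described as biological, with the number of animals behind each left unstated, so the p-values below measure the spread between these samples.

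Siglecs bind sialic acid, the sugar that caps most glycans of mammalian cells, and they do so on the cell's own surface as well as on its neighbours. Most members carry tyrosine motifs in their cytoplasmic tail that recruit phosphatases such as SHP-1, encoded by Ptpn6, and thereby dampen activating receptors. Others lack these motifs and pair with the adaptor DAP12, encoded by Tyrobp, or act mainly in adhesion. The CD33-related members evolve quickly and lie close together in the genome, whereas Siglec-1 and CD22 are conserved between mammals. In textbooks Siglec-F marks eosinophils, Siglec-H marks plasmacytoid DCs, CD22 and Siglec-G belong to B cells, and Siglec-1 marks subsets of macrophages.

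Values are log2 signals, on which a difference of 1 is a doubling, and the median gene lay between 5.00 and 5.14 on all 15 arrays. Arrays of the same population correlated across genes with Pearson's r between 0.978 and 0.995. The genes behind the sort followed the labels. Itgae, which encodes CD103, had mean log2 signals of 10.38 and 10.90 in the subsets sorted as CD103+, against 7.84 (CD103-CD11b+) and 8.76 (CD103-CD11b-) in those sorted as negative. Itgam, which encodes CD11b, was at 9.56 and 9.53 in the CD11b+ DC subsets, at 4.93 in CD103+CD11b- DCs and at 6.64 in CD103-CD11b- DCs. Fcgr1, which encodes CD64, was at 8.92 in macrophages and below the array median on all 12 DC arrays. In populations of many cells, fewer cells of a type and less RNA per cell cannot be told apart.

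**Figure D1:**
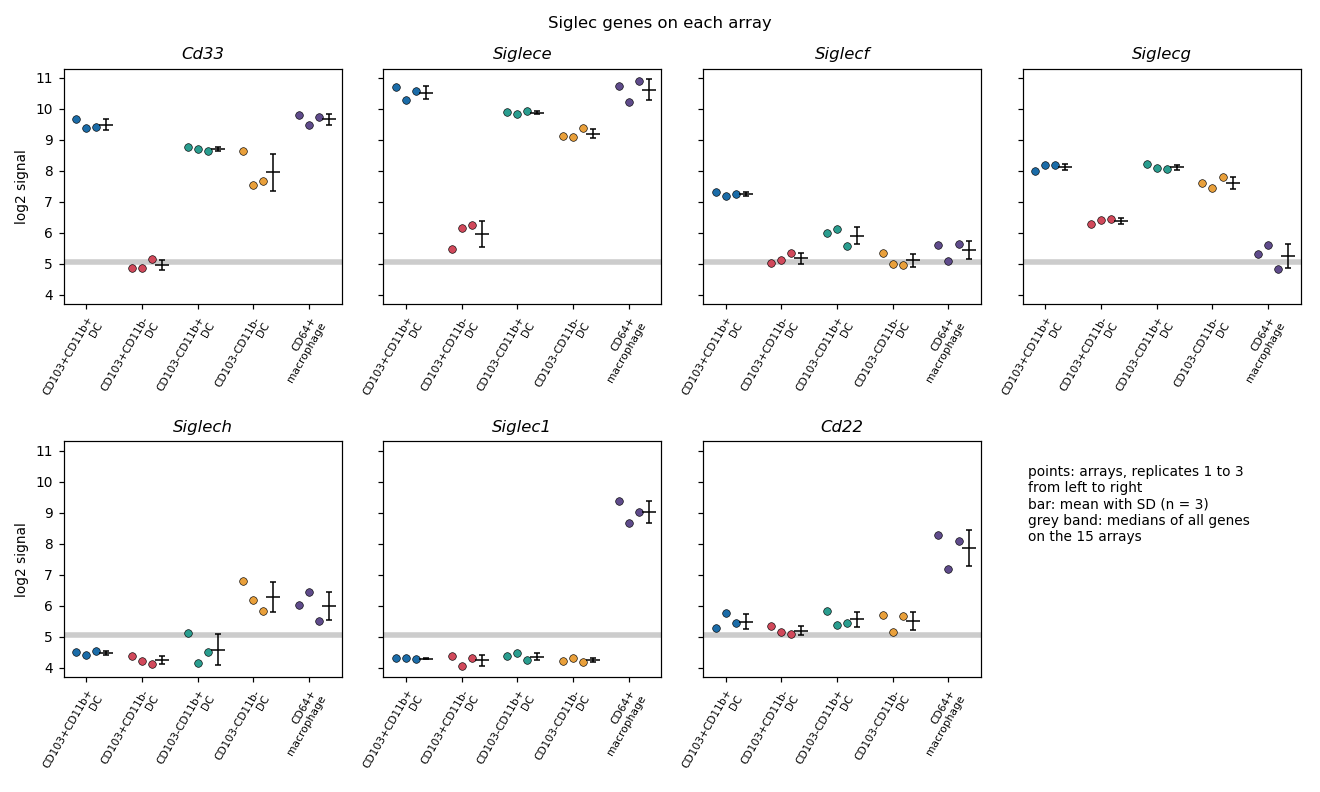
Log2 signal (vertical axis) of each Siglec gene on each of the 15 arrays, by population (horizontal axis), with the mean and SD of the 3 replicates beside the points and a grey band for the array medians, 5.00 to 5.14. Cd33 and Siglece were low in CD103+CD11b- DCs alone among the 5 populations, Siglecf was highest in CD103+CD11b+ DCs, Siglecg was lowest in macrophages, and Siglec1 and Cd22 were highest in macrophages.

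Each pair of populations was compared with limma on all genes, and differences are said to pass where the p adjusted by the Benjamini-Hochberg method was under 0.01 and the 2 means were more than 1 apart on the log2 scale. Every Siglec gene passed in at least 4 of the 10 comparisons, and 11% of all genes passed in at least 1. Siglecg passed in 7, Cd33, Siglece and Siglech in 6 each, and Siglecf, Siglec1 and Cd22 in 4 each, which made 37 of 70. Within CD103+ DCs, 4 of the 7 genes passed, all higher in the CD11b+ subset, where 3.2% of all genes passed. Between CD103+CD11b+ and CD103-CD11b+ DCs only Siglecf passed, against 0.461% of all genes. The contrast of CD103+CD11b+ with CD103-CD11b- DCs gave 4 of the 7, of which 3 were higher in the former and Siglech was lower, against 1.93% of all genes. CD103+CD11b- DCs were lower than CD103-CD11b+ DCs in 3 of the 7 and than CD103-CD11b- DCs in 4 of the 7, where 3.17% and 2.66% of all genes passed. The remaining DC pair, CD103-CD11b+ against CD103-CD11b- DCs, differed in Siglech alone, against 0.808% of all genes.

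Macrophages differed from every DC subset in most of the family. They differed from CD103+CD11b+ DCs in 5 of the 7 genes (2 higher and 3 lower in the DCs), against 5.68% of all genes. They differed from CD103+CD11b- DCs in 6 of the 7 (1 higher and 5 lower in the DCs), against 7.03% of all genes. The counts were 4 of the 7 against CD103-CD11b+ and 5 of the 7 against CD103-CD11b- DCs, each with only Siglecg higher in the DCs, against 5.18% and 6.3% of all genes. In each comparison the share of Siglec genes that passed was above that of all genes. The 10 comparisons share arrays, so their counts are not independent of each other.

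**Figure D2:**
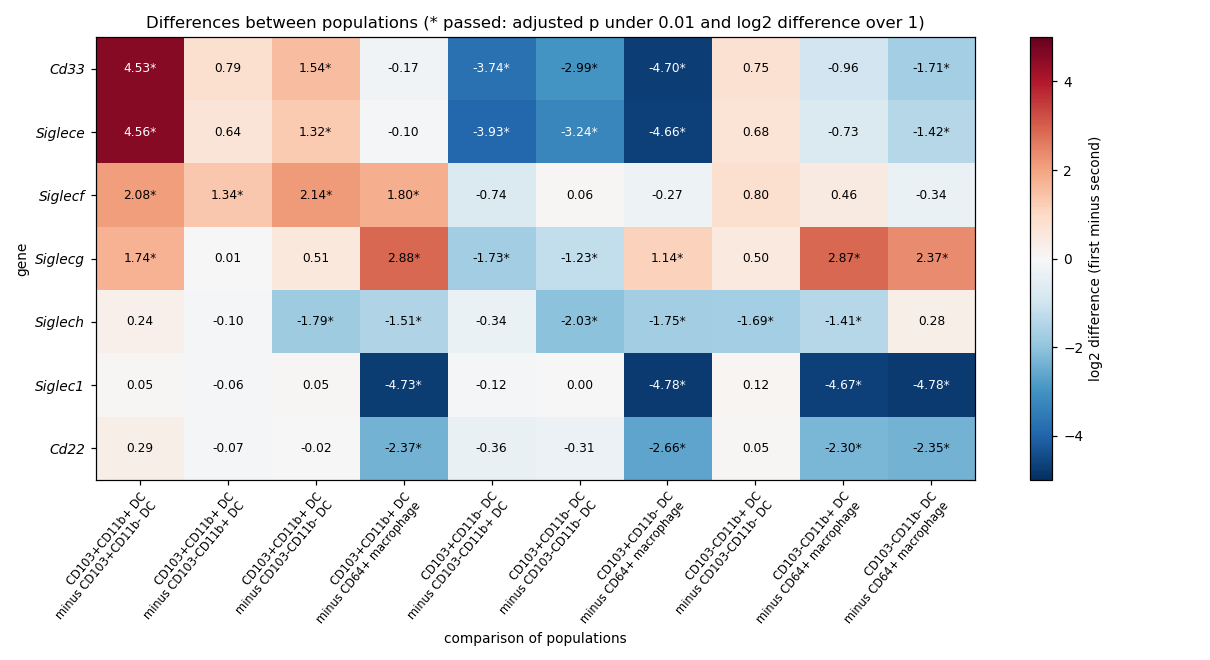
Log2 difference, first population minus second, of each Siglec gene (rows) in each of the 10 comparisons (columns), with an asterisk where the adjusted p was under 0.01 and the difference exceeded 1. Red marks a higher and blue a lower level in the first population, and 37 of the 70 cells carry an asterisk.

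Cd33 and Siglece, which encode CD33-related receptors of myeloid cells, had nearly the same distribution over the 5 populations. Cd33 had log2 signals of 9.69, 9.38 and 9.42 in CD103+CD11b+ DCs and of 9.79, 9.47 and 9.74 in macrophages. It was at 8.76, 8.71 and 8.64 in CD103-CD11b+ DCs and at 8.65, 7.56 and 7.66 in CD103-CD11b- DCs. The CD103+CD11b- arrays gave 4.87, 4.88 and 5.15, of which 2 were below the array median and all were below every other array. The CD103+CD11b- subset was lower than CD103+CD11b+ DCs by 4.53 ± 0.21 (log2, SE of the fit, n = 3 arrays each), with a limma adjusted p of 2.6e-09. It was also lower than CD103-CD11b- DCs, its nearest neighbour in the order, by 2.99 ± 0.21 (adjusted p = 3.1e-07, limma). At the upper end, macrophages and CD103+CD11b+ DCs differed by 0.17 (95% CI -0.29 to 0.63, adjusted p = 0.706, limma) and their arrays overlapped. CD103+CD11b+ DCs stood above CD103-CD11b+ DCs by 0.79 without overlap, but the limma adjusted p was 0.101. CD103-CD11b+ and CD103-CD11b- DCs overlapped and were 0.75 apart (adjusted p = 0.0804, limma).

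The markers of conventional type 2 DCs (cDC2), a list of 5 that includes Irf4 and Sirpa, had means per array of 8.45 to 8.89 in both CD11b+ DC subsets, 6.95 to 7.10 in CD103-CD11b- DCs and 5.13 to 5.31 in CD103+CD11b- DCs. Those of type 1 DCs (cDC1), also 5, ran the other way, at 10.51 to 10.80 in CD103+CD11b- DCs, 8.44 to 8.98 in CD103-CD11b- DCs and 6.14 to 6.86 in both CD11b+ subsets. Macrophages had means per array of 8.87 to 9.03 for the cDC2 list and of 7.02 to 7.56 for the cDC1 list. Their cDC2 range overlapped with that of CD103-CD11b+ DCs, 8.59 to 8.89. Among the DC subsets both lists were intermediate in CD103-CD11b- DCs. Cd33 in that subset was 0.75 below CD103-CD11b+ DCs, which did not pass, and 2.99 above CD103+CD11b- DCs. The part of either list in the level of Cd33 was not tested.

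The spread of Cd33 in CD103-CD11b- DCs came from 1 array. Replicate 1 of that subset, with 8.65 for Cd33, also had the highest mean over the measured macrophage markers, 6.55 against 5.22 and 5.42 in the other replicates and 10.24 to 10.35 in macrophages themselves. Whether the macrophage markers had a part in the level of Cd33 was not tested. Without that array Cd33 passed as higher in CD103-CD11b+ than in CD103-CD11b- DCs, with a log2 difference of 1.10 (limma adjusted p = 2.6e-04).

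Siglece encodes Siglec-E, an inhibitory receptor of neutrophils, monocytes and macrophages. Its log2 signals were 10.70, 10.29 and 10.57 in the CD103+CD11b+ subset, 9.89, 9.83 and 9.92 in the CD103-CD11b+ subset and 9.12, 9.10 and 9.38 in the CD103-CD11b- subset. They were 10.73, 10.23 and 10.89 in macrophages and 5.48, 6.15 and 6.24 in CD103+CD11b- DCs. As for Cd33, the CD103+CD11b- arrays lay apart from all others, and the order of the other 4 populations was the same. The difference from CD103+CD11b+ DCs was 4.56 ± 0.19, or 23.7-fold (adjusted p = 8.6e-10, limma), and that from CD103-CD11b- DCs was 3.24 ± 0.19 (adjusted p = 6.7e-08, limma). The steps between the other neighbours in the order, 0.10, 0.64 and 0.68, did not pass, with limma adjusted p of 0.836, 0.168 and 0.0770, although the arrays overlapped only between macrophages and CD103+CD11b+ DCs. Over the 15 arrays Cd33 and Siglece correlated with a Pearson's r of 0.984, which reflects the same 5 populations in both genes.

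Siglecf encodes Siglec-F, an inhibitory receptor known from eosinophils and alveolar macrophages, and it had its highest level in CD103+CD11b+ DCs. The arrays of this subset gave 7.32, 7.17 and 7.25. CD103-CD11b+ DCs gave 6.01, 6.13 and 5.59, and macrophages gave 5.62, 5.10 and 5.63. CD103+CD11b- DCs gave 5.04, 5.12 and 5.36, and CD103-CD11b- DCs gave 5.35, 5.00 and 4.97. All 3 arrays of CD103+CD11b+ DCs lay above the other 12, which overlapped each other between neighbours in the order. Siglecf was the only member that passed between the CD11b+ DC subsets, higher in CD103+CD11b+ DCs by 1.34 ± 0.17, or 2.53-fold (adjusted p = 4.6e-04, limma), a call that was lost when the difference was tested against 1 instead of 0. It was also higher there than in CD103+CD11b- DCs by 2.08, CD103-CD11b- DCs by 2.14 and macrophages by 1.80, with limma adjusted p of 5.2e-07, 1.5e-06 and 1.1e-06. No other pair of populations passed for this gene. CD103-CD11b+ DCs exceeded CD103+CD11b- DCs by 0.74 without overlap, below the limit on the difference (adjusted p = 0.0081, limma).

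Markers of other cells that could carry Siglec-F were set beside these values. The 6 measured of 8 eosinophil markers had means per array between 4.17 and 4.44 in CD103+CD11b+ DCs and between 3.93 and 4.90 over all arrays. In CD103+CD11b+ DCs 5 of the 6 lay below the array median on all 3 arrays. Those low there included Epx, an eosinophil granule peroxidase, and Il5ra, the receptor of interleukin-5, both picked after their values were seen. Their population means were 3.72 to 3.82 and 3.23 to 3.31, all below the array medians. Prg2, an eosinophil granule protein, was the 1 marker of the list above the array median on all arrays, with a mean of 6.41 in the CD103+CD11b+ subset and 8.04 in the CD103-CD11b- subset, where Siglecf was lowest. The 8 tuft cell markers had means per array of 4.56 to 4.61 in CD103+CD11b+ DCs, and none passed against either CD103+CD11b- or CD103-CD11b+ DCs. Against macrophages 1 of the 8, Alox5, which leukocytes also express, was lower in CD103+CD11b+ DCs (means of 5.27 and 8.39). Of all genes, 5.68% passed in that comparison, and the median difference was -0.03 over the list and 0.01 over all genes. The 10 epithelial markers had means per array of 7.55 to 8.11 in CD103+CD11b+ DCs, 7.18 to 7.57 in CD103+CD11b- DCs, 6.49 to 6.94 in CD103-CD11b+ DCs and 6.42 to 7.94 in macrophages. Their part in the Siglecf difference was not tested.

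Cd33 and Siglecf are set side by side because their promoter windows resemble each other. Both were higher in CD103+CD11b+ than in CD103+CD11b- DCs, but so were Siglece and Siglecg, which made 4 of the 7 genes. Over the 15 arrays the levels of Cd33 and Siglecf correlated with a Pearson's r of 0.54. RefSeq windows of assembly GRCm38.p6, from 250 bases before to 50 after a start site, were at hand for 6 of the 7 genes, all but Siglec1. In a local alignment of each pair of windows on the same strand, Cd33 and Siglecf scored 47, with 94 identical letters in 134 columns, and the other 14 pairs scored at most 15. The stretches that aligned lie at chr7:43351259-43351389 on the plus strand, from base -82 to 49 of the Siglecf start site, and at chr7:43533252-43533374 on the minus strand, from base -203 to -81 of the Cd33 start site. They read as follows from 5′ to 3′, with capitals for the letters GGAAGT, the core that ETS factors bind, and TGTGGT, the core that RUNX factors bind.
Siglecf: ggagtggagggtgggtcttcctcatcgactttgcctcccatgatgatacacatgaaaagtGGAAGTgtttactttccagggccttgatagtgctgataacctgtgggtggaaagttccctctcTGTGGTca
Cd33: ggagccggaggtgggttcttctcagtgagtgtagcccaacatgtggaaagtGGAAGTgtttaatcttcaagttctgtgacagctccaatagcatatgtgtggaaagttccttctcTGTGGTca

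The longest run common to both, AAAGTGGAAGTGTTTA, has 16 bases and was found in these windows only among 32851, as was a second run of 12 bases, GTGGAAAGTTCC. The longest run in the other 14 pairs had at most 10 bases. Both cores were searched on both strands after these sequences had been seen, GGAAGT occurs inside the 16-base run, and the cores do not overlap each other. GGAAGT was present in 23.77% and TGTGGT in 16.76% of all windows, and both together in 4.176%. Among the Siglec windows Siglecf, Cd33 and Siglech held both, the last on the other strand. Siglece, the member whose levels were most like those of Cd33, held neither, and its longest run in common with Cd33 had 9 bases. A match to these letters is a description of the sequence, and binding was not measured.

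Siglecg encodes Siglec-G, an inhibitory receptor best known from B cells that binds the glycoprotein CD24. Its log2 signals were 8.0, 8.18 and 8.20 in the CD103+CD11b+ subset, 8.21, 8.08 and 8.05 in the CD103-CD11b+ subset and 7.61, 7.43 and 7.81 in the CD103-CD11b- subset. They were 6.28, 6.41 and 6.46 in CD103+CD11b- DCs and 5.30, 5.60 and 4.82 in macrophages, the last below the array median. In contrast to the other members, Siglecg was higher in every DC subset than in macrophages, and no DC array overlapped with a macrophage array. CD103+CD11b+ DCs exceeded macrophages by 2.88 ± 0.15, or 7.38-fold, the CD103-CD11b+ subset by 2.87, the CD103-CD11b- subset by 2.37 and the CD103+CD11b- subset by 1.14, with limma adjusted p from 3.1e-09 to 4.9e-05. The smallest of these, for CD103+CD11b- DCs, was 0.93 without replicate 3 of the macrophages and then missed the limit on the difference. CD103+CD11b- DCs were lower than each of the other DC subsets, by 1.74, 1.73 and 1.23. Both CD11b+ subsets were level, with a difference of 0.01 (95% CI -0.32 to 0.34, adjusted p = 0.995, limma). CD103-CD11b- DCs lay below CD103-CD11b+ DCs by 0.50 without overlap, which did not pass (adjusted p = 0.115, limma).

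Siglech encodes Siglec-H, which pairs with DAP12 and is used as a marker of plasmacytoid DCs. It had log2 signals of 6.79, 6.20 and 5.84 in CD103-CD11b- DCs and of 6.03, 6.43 and 5.52 in macrophages. The other populations were at 4.52, 4.41 and 4.53 (CD103+CD11b+ DCs), 4.39, 4.21 and 4.13 (CD103+CD11b- DCs) and 5.11, 4.14 and 4.51 (CD103-CD11b+ DCs). CD103-CD11b- DCs and macrophages overlapped and lay above all 9 arrays of the other DC subsets. CD103-CD11b- DCs exceeded CD103+CD11b- DCs by 2.03 ± 0.26, CD103+CD11b+ DCs by 1.79 and CD103-CD11b+ DCs by 1.69, with limma adjusted p of 9.6e-05, 4.9e-04 and 0.0019. No fold is given, since all CD103+CD11b- arrays lay below the array median. Macrophages exceeded the same subsets by 1.75, 1.51 and 1.41 (limma adjusted p of 1.3e-04, 6.1e-04 and 0.0012). They were 0.28 below CD103-CD11b- DCs (95% CI of the difference -0.28 to 0.84, adjusted p = 0.571, limma). The difference between CD103-CD11b- and CD103-CD11b+ DCs did not pass without replicate 2 of the latter (CD103-CD11b+ minus CD103-CD11b-, -1.47 on the log2 scale, adjusted p = 0.0131, limma) or without its replicate 3 (-1.65, adjusted p = 0.0127, limma). No Siglech difference passed when tested against 1 instead of 0.

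The measured plasmacytoid DC markers, 9 of 11, had as a list their highest mean per array in CD103-CD11b- DCs, where Siglech also had its highest mean. Their mean per array was 7.64 to 7.78 there, 6.45 to 6.91 in macrophages, 6.62 to 6.92 in CD103-CD11b+ DCs, 6.06 to 6.29 in CD103+CD11b+ DCs and 6.20 to 6.33 in CD103+CD11b- DCs. Of these 9 markers, 6 were lower in CD103+CD11b+, 4 in CD103+CD11b- and 3 in CD103-CD11b+ than in CD103-CD11b- DCs. Of all genes, 1.93%, 2.66% and 0.808% passed in either direction in these comparisons. The median log2 differences were -1.32, -0.78 and -0.95 over the list and 0.01, -0.02 and 0.02 over all genes. Ly6d, a surface antigen of plasmacytoid DC and B cell progenitors, was at 9.57 in CD103-CD11b- DCs and 7.81 in macrophages. Tcf4, the transcription factor that directs plasmacytoid DC fate, was at 8.63 and 8.53 in the same populations. Plasma cell markers, 7 of 8 measured, had a mean per array of 9.10 to 9.95 in CD103-CD11b- DCs, 8.05 to 9.08 in macrophages and 6.93 to 7.11 in CD103+CD11b- DCs. The part of either list in the level of Siglech was not tested.

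Siglec1 and Cd22 were higher in macrophages than in all 4 DC subsets. Siglec1 encodes sialoadhesin, a long adhesion receptor of macrophages without an inhibitory motif. It had log2 signals of 9.37, 8.67 and 9.04 in macrophages. On the 12 DC arrays it lay between 4.05 and 4.47, below the array medians throughout. Macrophages exceeded CD103-CD11b+ DCs, at 4.37, 4.47 and 4.25, by 4.67 ± 0.14 (adjusted p = 1.4e-11, limma) and the other subsets by 4.73 to 4.78. No fold is given, since every DC array lay below its median. No pair of DC subsets passed.

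Cd22 encodes an inhibitory coreceptor of B cells that binds sialic acid added to galactose by the enzyme of St6gal1. It had log2 signals of 8.28, 7.19 and 8.10 in macrophages. CD103+CD11b+ DCs were at 5.27, 5.75 and 5.44, CD103+CD11b- DCs at 5.35, 5.16 and 5.09, CD103-CD11b+ DCs at 5.84, 5.38 and 5.45, and CD103-CD11b- DCs at 5.71, 5.16 and 5.66. Every macrophage array lay above every DC array, and the DC subsets overlapped between neighbours in the order. Macrophages exceeded CD103-CD11b+ DCs by 2.30 ± 0.24, or 4.92-fold (adjusted p = 5.3e-06, limma), and CD103+CD11b- DCs by 2.66, or 6.30-fold (adjusted p = 6.7e-07, limma). The DC subsets differed among each other by at most 0.36, and none of these differences passed. Replicate 2 of the macrophages was the lowest of its group for Siglec1, Cd22, Cd33, Siglece and Siglecf and the highest for Siglecg and Siglech. The same array had the highest means of the group for epithelial markers, 7.94 against 6.48 and 6.42, and for plasma cell markers, 9.08 against 8.19 and 8.05, and their part in these levels was not tested.

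Because CD22 is known from B cells, 9 measured of 10 B cell markers were set beside it. Their mean per array was 4.99 to 5.37 in macrophages and 5.16 to 5.34 in CD103-CD11b- DCs. Of the 9 markers, those that passed as higher in macrophages numbered 1 against the CD103+CD11b+ subset, 1 against the CD103-CD11b+ subset, 2 against the CD103+CD11b- subset and none against the CD103-CD11b- subset. Of all genes, 5.68%, 5.18%, 7.03% and 6.3% passed in either direction in the same order. Cd79b, a signalling chain of the B cell receptor, had mean log2 signals of 8.99 in macrophages and 8.96 in CD103-CD11b- DCs, against 7.64 (CD103-CD11b+), 6.61 (CD103+CD11b+) and 6.09 (CD103+CD11b-) in the remaining subsets. Cd79a, its partner, was at 7.12 in macrophages and 7.97 in CD103-CD11b- DCs. On all arrays of macrophages and of CD103-CD11b- DCs, 3 of the 9 markers lay above the array median and 6 below. Fcrla was among those above, with population means of 5.25 to 5.95. Those below included Ms4a1, Pax5 and Cr2, picked after their values were seen. Their population means were 3.71 to 4.09, 4.38 to 4.82 and 3.35 to 3.44, all below the array medians. Cd22 was higher in macrophages than in CD103-CD11b- DCs by 2.35 ± 0.24 (adjusted p = 3.4e-06, limma). The part of the B cell markers in the level of Cd22 was not tested.

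**Figure D3:**
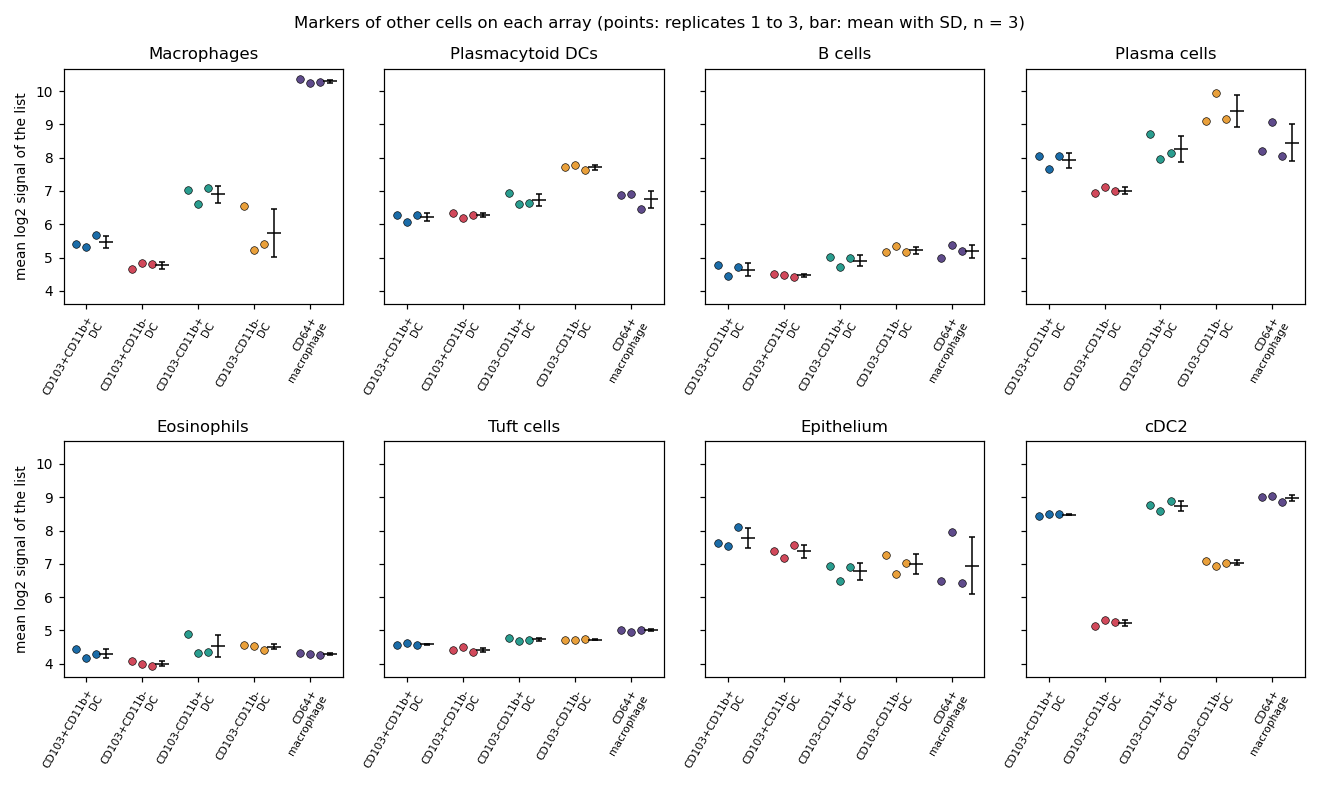
Mean log2 signal (vertical axis) of 8 lists of cell type markers on each array, by population (horizontal axis), with the mean and SD of the 3 replicates. Macrophage markers were at 10.24 to 10.35 in macrophages and at 6.55 on replicate 1 of CD103-CD11b- DCs, plasmacytoid DC markers were highest in CD103-CD11b- DCs, and eosinophil and tuft cell markers had means of 3.93 to 5.03 on all arrays.

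The 4 DC subsets form a square of CD103 and CD11b, and it was asked whether the difference between CD11b+ and CD11b- DCs was the same on either side of CD103. It differed for 5 of the 7 genes, against 1.97% of all genes, and in each the difference, CD11b+ minus CD11b-, was the greater in CD103+ DCs. For Cd33 it was 4.53 in CD103+ and 0.75 in CD103- DCs, an interaction of 3.78 ± 0.30 (adjusted p = 5.7e-06, limma). For Siglece it was 4.56 and 0.68, an interaction of 3.88 ± 0.27 (adjusted p = 3.0e-06, limma). Both rested on the low CD103+CD11b- arrays. For Siglecf it was 2.08 and 0.80 (interaction 1.28, adjusted p = 0.0043, limma) and for Siglecg 1.74 and 0.50 (interaction 1.24, adjusted p = 0.0033, limma). For Siglech it was -1.69 in CD103- DCs and 0.24 in CD103+ DCs, where it did not pass (95% CI -0.32 to 0.81, adjusted p = 0.700, limma) and all 6 arrays lay below the array median (interaction 1.93, adjusted p = 0.0060, limma). The calls of Siglecf, Siglecg and Siglech were lost when single arrays were left out, so that 2 or 3 of the 7 genes then passed in 8 of the 12 cases among the DC arrays, and Cd33 and Siglece were kept throughout. Siglec1 and Cd22 had interactions of -0.06 and 0.23, which did not pass (adjusted p = 0.961 and 0.891, limma). All interactions used CD103-CD11b- DCs, which had Itgam at 6.64 against 4.93 in CD103+CD11b- DCs. This subset also had the highest plasma cell and plasmacytoid DC markers. The paper describes it as heterogeneous and left it out when the remaining subsets were compared. The part of these traits in the interactions was not tested.

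The members therefore fell into distributions of different shape, described here by Pearson's r of log2 signals over the 15 arrays, which share their populations. Besides Cd33 with Siglece, Siglec1 and Cd22 were alike (r = 0.965). Siglecg ran against Siglec1 (r = -0.81) and Cd22 (r = -0.72). Siglecf had its best match within the family in Cd33, at only 0.54. Among 2312 genes whose population means spanned more than 1, those most like Cd33 were Ccr1, a receptor of inflammatory chemokines (r = 0.989), Tyrobp (0.978) and Milr1 (0.978). Siglece was nearest to Sorl1 (0.990), Emb (0.987) and Ccr1 (0.985). For Siglecf they were St18 (0.976), Cass4 (0.948) and Spire1 (0.940), and St18, a zinc finger factor, had a mean of 6.83 in CD103+CD11b+ DCs and between 4.85 and 5.70 elsewhere. Siglecg was nearest to Mdh2, the mitochondrial malate dehydrogenase (0.989), Plxnc1 (0.982) and Ifitm6 (0.977). Siglech was nearest to Tcf4 (0.941), Fndc3a (0.928) and Gimap4 (0.918). The genes most like Siglec1 were Tlr7 (0.996), an RNA sensor, C6 (0.994) and Pf4 (0.994), and those most like Cd22 were Tfec (0.982), Cd4 (0.981) and Igf1 (0.980). Cd4, the coreceptor of helper T cells, was at 9.17 in macrophages and between 5.30 and 5.79 in the DC subsets.

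Of the 7 genes, Siglec1 lies on chromosome 2 and the others on chromosome 7, where Siglecf, Siglecg, Cd33 and Siglece follow each other in this order within a run of 17 protein-coding genes. The 13 other genes of the run included 12 with a value, and 2 of these passed in at least 1 comparison, where 11% of all genes did. They were Zfp719 in 4 and Zfp658 in 2 of the 10 comparisons, zinc finger genes that lie next to each other and next to Cd33. Zfp719 had means of 5.51 in CD103+CD11b- DCs, 6.84 to 7.08 in the other DC subsets and 7.81 in macrophages. Zfp658 was at 4.19 in CD103+CD11b- DCs and at 5.68 in macrophages. Nkg7, Etfb and the other neighbours passed in none of the comparisons, and each of the 4 Siglec genes passed in at least 4. Siglecf and Siglecg are adjacent and both had their highest mean in CD103+CD11b+ DCs, but Siglecf was lowest in CD103-CD11b- DCs, at 5.11, and Siglecg in macrophages, at 5.24.

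**Figure D4:**
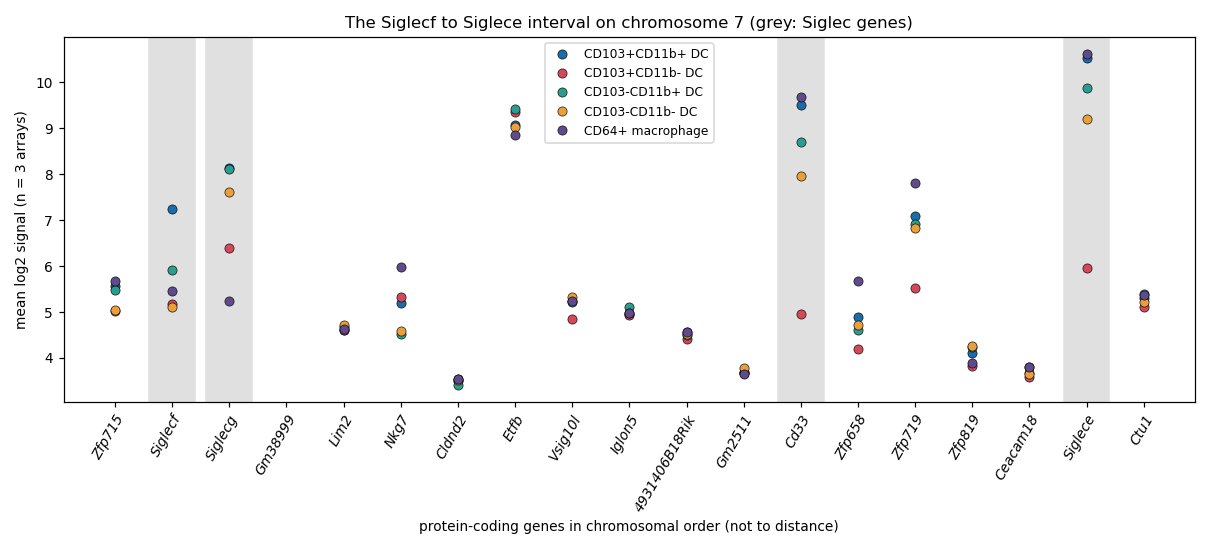
Mean log2 signal (vertical axis, n = 3 arrays) of protein-coding genes in their order on chromosome 7 (horizontal axis, not to distance) from Siglecf to Siglece with 1 gene on either side, coloured by population, with the Siglec genes in grey. The populations spread widely at Siglecf, Siglecg, Cd33, Zfp719 and Siglece and lay close together at most genes between them, and Gm38999 had no value.

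Siglecs act through adaptors, kinases and phosphatases. Of 14 listed signalling genes 12 were measured and 7 passed in at least 1 of the 10 comparisons, against 11% of all genes. Within CD103+ DCs, 3 were higher in the CD11b+ than in the CD11b- subset and none lower, where 3.2% of all genes passed. The median log2 difference was 0.35 over the list and 0.03 over all genes. Against CD103-CD11b+ and CD103-CD11b- DCs 4 each were lower in CD103+CD11b- DCs, where 3.17% and 2.66% of all genes passed. The medians were -0.42 and 0.02 over the list and -0.04 and -0.02 over all genes. Against macrophages 5 were lower in CD103+CD11b- DCs and 1, Fyn, was higher (medians -0.83 and -0.03), and the other DC subsets gave 4, 3 and 3 calls against macrophages. Tyrobp, the adaptor of Siglec-H, had means of 10.60 in CD103+CD11b- DCs, 11.70 to 12.24 in the other DC subsets and 12.56 in macrophages, and it was higher in CD103+CD11b+ than in CD103+CD11b- DCs by 1.63 (adjusted p = 9.1e-08, limma). Syk, a kinase that docks on such adaptors, was higher by 1.54 and Fgr, a Src family kinase, by 2.86 in the same comparison (limma adjusted p of 2.9e-07 and 3.9e-09). Ptpn6, the phosphatase that inhibitory Siglecs recruit, varied less, with population means of 9.28 to 10.08. Socs3 was highest in macrophages at 9.62 and at 8.75 in CD103-CD11b+ DCs against 6.90 to 7.56 in the other DC subsets. Hcst was also highest in macrophages, at 8.76, and Fyn was lower in macrophages, at 6.68, than in the DC subsets, at 7.83 to 8.17.

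Genes that make, attach or remove sialic acid were all measured, and 7 of the 33 passed in at least 1 comparison, against 11% of all genes. CD103+CD11b- DCs had 1 of them higher and 5 lower than macrophages, where 7.03% of all genes passed. The median log2 difference was -0.08 over the list and -0.03 over all genes. Npl, the lyase that degrades free sialic acid, was at 9.39 in macrophages and at 3.87 to 4.93 in the DC subsets, lower by 4.46 to 5.52 in each of them. St3gal5, which makes the ganglioside GM3, ran the other way, at 5.27 in macrophages, 8.49 in CD103+CD11b- DCs and 7.09 to 7.30 in the other DCs. St3gal6 was higher in macrophages, at 6.85, than in the DC subsets, at 5.11 to 5.44. CD103-CD11b- DCs had the highest means of Cmah, which hydroxylates sialic acid and alters the ligands that Siglecs prefer, at 7.58 against 4.87 to 6.0 elsewhere, and of St8sia6, at 7.58 against 4.96 to 6.55. They also had the highest mean of St6gal1, 8.99, which makes the linkage that CD22 binds. St6gal1 was at 8.07 in macrophages and lowest in CD103+CD11b- DCs, at 7.01. CD103-CD11b- DCs are also the subset with the highest plasma cell and plasmacytoid DC markers above, and their part in these levels was not tested.

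Of 5 glycoproteins known as Siglec ligands, 2 passed in at least 1 comparison, against 11% of all genes. Cd24a, the ligand of Siglec-G, had means of 9.59 to 10.86 in the DC subsets and 7.46 in macrophages, where Siglecg was also lowest, and each subset exceeded macrophages by 2.13 to 3.40. Spn, which encodes the mucin CD43, had a mean of 7.04 in the CD103-CD11b- subset, 6.54 in the CD103-CD11b+ subset and 5.68 to 5.88 elsewhere. Other family members measured on these arrays were Mag, a receptor of myelin, and Siglec15, a receptor of osteoclasts. Mag was at 3.78 to 4.50 and Siglec15 at 5.69 to 5.87, and neither passed in any comparison.

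**Figure D5:**
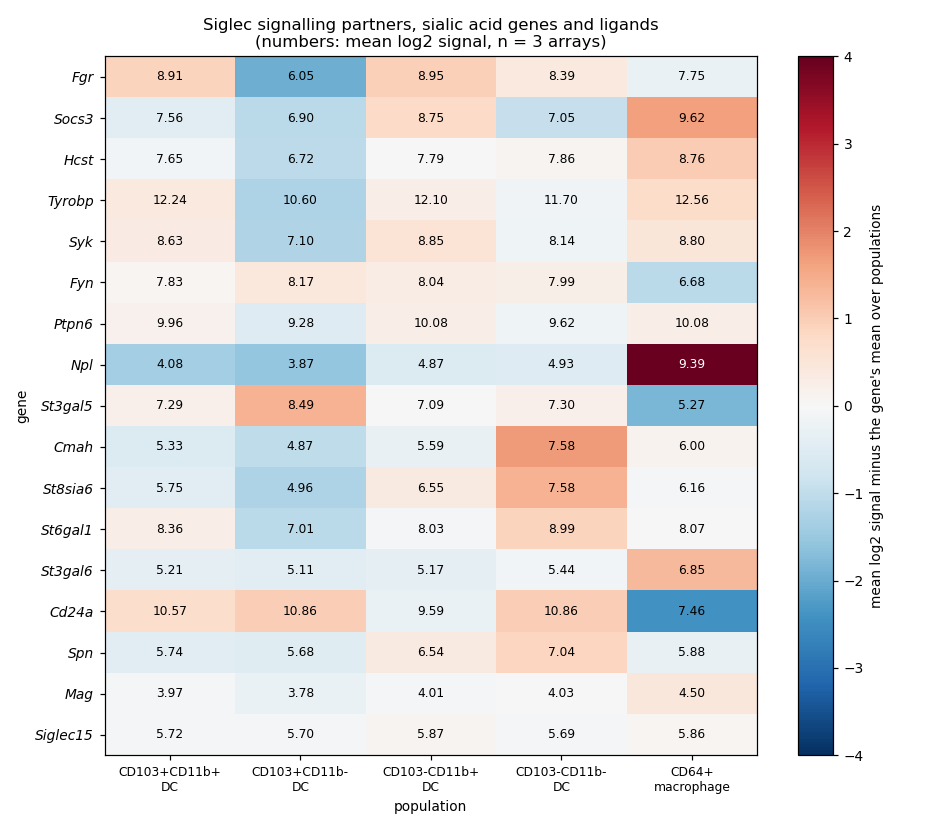
Mean log2 signal (numbers, n = 3 arrays) of genes that act with Siglecs, handle sialic acid or carry Siglec ligands (rows) in the 5 populations (columns), coloured by the difference from the gene's mean over populations. Npl stood out in macrophages at 9.39, Fgr was lowest in CD103+CD11b- DCs at 6.05, Cmah and St8sia6 were highest in CD103-CD11b- DCs at 7.58, and Cd24a was lowest in macrophages at 7.46.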

How the data were processed

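RNA of cells sorted from the small intestinal LP was amplified, labelled with biotin and hybridized to GeneChip Mouse Gene 1.0 ST arrays. The authors processed the scans with Robust Multi-array Average (RMA) and deposited log2 signals, which are background-corrected, quantile-normalized and summarized per probeset. Quantile normalization makes the distributions of the arrays alike and removes differences in total RNA, and the number of arrays limits the precision. The version of RMA is not given in the sources used here.

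Samples were grouped by their labels. Of 35556 probesets, 21789 had 1 gene symbol in the array annotation, 1621 had several and 12146 were unnamed here. For the 999 genes with more than 1 single-symbol probeset the one with the highest mean was used, which left 19938 genes. One limma model (3.58.1, R 4.3.3) with 5 population means was fitted to all 15 arrays without a filter, and the 10 pairwise differences and the CD103 by CD11b interaction were taken from it. The p-values were two-sided and Benjamini-Hochberg adjusted over all genes. The code was tested on simulated data. Alternatives were other sets of arrays, a replicate block, other probeset rules, normalizations, filters, spread estimates, thresholds, Student's t-test and leaving out each array.

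The Siglec genes, related lists and marker lists were chosen with earlier results of these data known. Named were all members, Mag and Siglec15, list genes that passed in at least 3 comparisons (up to 8 per list) with Tyrobp and Ptpn6, the sort genes, up to 3 markers of a list by their highest mean, and for each member the 3 genes of highest Pearson's r. Markers outside this rule (Epx, Il5ra, Ms4a1, Pax5, Cr2, Epcam) and the genes between Siglecf and Siglece were chosen after their values were seen. The lists of T cell and neutrophil markers had means per array of at most 5.30 and 4.17. Gene order came from RefSeq, promoter windows from RefSeq GRCm38.p6, and the array probes were given no coordinates. Alignments used Biopython 1.88 (match 1, mismatch -1, gap opening -2, extension -1), and figures were drawn with matplotlib 3.10.9, all under Python 3.11.15 with numpy 2.4.6 and pandas 2.3.3.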

Additional observations from a re-analysis of the deposited data

Results flagged for a closer look

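The difference between CD11b+ and CD11b- DCs was not the same in CD103+ and CD103- DCs for 5 Siglec genes by the interaction term of the limma model. The excess in CD103+ over CD103- DCs was 3.78 for Cd33, 3.88 for Siglece, 1.28 for Siglecf, 1.24 for Siglecg and 1.93 for Siglech, all as log2 differences. For Siglech the difference was -1.69 in CD103- DCs and 0.24 in CD103+ DCs, and the latter did not pass (adjusted p = 0.700, limma). The term also uses CD103-CD11b- DCs, the subset with the highest plasma cell and plasmacytoid DC markers, whose part was not tested. The groups of 3 arrays are too small to look for single outlying samples.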

How the results depend on the processing

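No called Siglec difference changed direction under any alternative. Of 308 counts of Siglec genes that passed, 282 stayed within 1.5 times the main count. Single differences stayed on their side of the threshold in 2080 cases, lost the call in 56 and gained it in 20. The other probeset rules could not alter the levels of Siglec genes, which had 1 probeset each, and are counted among the unchanged cases. With 3 arrays per population, Siglec differences near 1 on the log2 scale and genes near the array median, such as Siglech, were among those that 1 array could decide.

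With only the 6 arrays compared, 0 Siglec genes passed between CD103-CD11b+ and CD103-CD11b- DCs (limma), and 4 of the 7 had an unadjusted p under 0.05 by Student's t-test. The methods name that test for comparisons of groups in general and name none for the arrays. Testing against a log2 difference of 1 with limma's treat gave 0 for that pair, 0 for CD103+CD11b+ against CD103-CD11b+ DCs (3 by the methods' t-test unadjusted), 1 for CD103+CD11b+ and 2 for CD103+CD11b- DCs against CD103-CD11b- DCs, 3 for CD103-CD11b- DCs against macrophages and 2 for the interaction. The methods' t-test at a Benjamini-Hochberg adjusted p under 0.05 gave the same counts for these 5 pairs, 0, 0, 1, 2 and 3, but not always for the same genes. For CD103+CD11b- against CD103-CD11b- DCs treat lost Siglecg and Siglech, and the t-test lost Cd33 (adjusted p = 0.0511) and Siglech. For CD103-CD11b- DCs against macrophages treat lost Cd33 and Siglece, and the t-test lost Cd33 and Cd22. The unadjusted t-test was added after seeing the data. An adjusted p under 0.05 without a limit on the difference gave 2 between CD103-CD11b+ and CD103-CD11b- DCs. Leaving out each array in turn gave 0 to 2 Siglec genes for that pair and 2 to 5 for the interaction. The call of Siglech was lost there without replicate 2 or 3 of CD103-CD11b+ DCs, Siglecg between CD103+CD11b- DCs and macrophages without replicate 3 of the macrophages, and Cd33 passed between CD103-CD11b+ DCs and macrophages without their replicate 2 (-1.06), after cyclic loess (-1.05), with array weights (-1.02), with arrays centred on genes over log2 6, at an adjusted p under 0.05 alone and by the t-test. The adjusted t-test lost Cd22 between macrophages and CD103-CD11b+ DCs (adjusted p = 0.0591) and CD103-CD11b- DCs (adjusted p = 0.0561).

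Arrays with the same replicate number deviated together with r over 0.1 in 18 of 30 pairs (-0.09 to 0.38, mean 0.12 against -0.06 for different numbers), and 13 of 15 arrays correlated best with their own number, a hint from the data and not from the labels. With the replicate number as a block the counts of Siglec genes were 4, 1, 4, 5, 3, 4, 6, 1, 4 and 5 over the pairs, in the order in which the plot of differences has them, and 5 for the interaction, and no Siglec call changed.

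Counts over all genes were 639, 92, 384, 1132, 633, 530, 1401, 161, 1033 and 1256 in that order and 393 for the interaction. They were 2164, 311, 1441, 3816, 2102, 1874, 4523, 682, 3530, 4195 and 923 at an adjusted p under 0.05 alone, and 226, 14, 75, 542, 244, 166, 727, 20, 418, 537 and 65 with treat. The adjusted t-test gave 1192, 6, 139 and 10 for CD103+CD11b+ DCs against the other DC subsets and for CD103-CD11b+ against CD103-CD11b- DCs, and the unadjusted one 4288, 1880, 2939, 4277, 3888, 3307, 4719, 1960, 3753 and 4035. CD103+CD11b+ against CD103-CD11b+ DCs gave 51, 57 or 56 without replicate 1 of CD103+CD11b+ DCs or replicate 1 or 3 of CD103-CD11b+ DCs, and CD103-CD11b+ against CD103-CD11b- DCs 106 with their 6 arrays and 102 without replicate 3 of CD103-CD11b+ DCs.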
